A study of Mus musculus with 12 samples.

Results

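The interferon regulatory factors (IRFs) are a family of transcription factors, and 8 of their genes, Irf1, Irf2, Irf3, Irf4, Irf5, Irf7, Irf8 and Irf9, were followed in mouse neutrophils exposed to bile acids. The 8 genes were the rows of the count table that carry these names, out of 29737 genes in the table. The family was chosen by name and selected on 1 measured value already known, the lower CPM of Irf8 with Tβ-MCA, so the Tβ-MCA values of the 8 genes are given as a description, with no p-value and with nothing read from how many of them pass a threshold. The cells were wild-type Ly6G+ neutrophils sorted from mouse bone marrow and cultured with fetal bovine serum for 24 h. The control group received PBS, and the other groups received taurocholic acid (TCA), glycocholic acid (GCA) or tauro-β-muricholic acid (Tβ-MCA), with 3 samples in each group and 12 samples in all. TCA and GCA are the taurine and the glycine conjugate of cholic acid, and Tβ-MCA is the taurine conjugate of β-muricholic acid. The labels give a dose of 200 µM for TCA and GCA and of 10 µM for Tβ-MCA, whereas the study's methods give 1 dose for all 3 bile acids, so the dose behind the Tβ-MCA values depends on the source. The labels give no strain, sex or age and do not say whether the samples came from separate mice, so p-values measure only the spread between these samples.

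IRFs share a DNA-binding domain that recognises the interferon-stimulated response element (ISRE). Irf3, Irf5 and Irf7 act downstream of pattern recognition receptors and switch on interferon genes. Irf9 is the DNA-binding part of the complex that type I interferon sends to ISREs, Irf1 is an interferon-induced activator, and Irf2 binds the same sites and can oppose Irf1. Irf4 and Irf8 bind DNA weakly alone and work with partners such as PU.1, and Irf8 directs myeloid progenitors toward monocytes and dendritic cells and away from neutrophils.

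All libraries were of similar depth, with 32757389 to 41375925 reads counted on genes per sample. Levels between samples are given as counts scaled to a common library size (CPM), and 3 counts, taken here as the floor of detection, corresponded to 0.0725 to 0.0916 CPM. The neutrophil markers S100a8, S100a9 and the rest of a list of 13 were above 0 in every sample, with summed levels of 38441 to 59589 CPM. Among the Tβ-MCA samples, replicate 5 lay nearer to the other groups than replicates 3 and 4 did, and the Tβ-MCA values of the members and the counts over gene lists are also given without it.

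STAT proteins, which carry the interferon signal to DNA, recognise a short palindrome, and the upstream sequences of the members that hold its letters are shown for that reason, together with Irf5, whose levels ran beside those of Irf8. The 250 bases upstream of each annotated start were taken from RefSeq (GRCm38.p6), where all 8 genes were matched, with 11 start sites between them. The gamma-activated sequence (GAS) was searched as TTCNNNGAA, whose reverse complement is the same letters. It was present upstream of 3 of the 8 genes, Irf1, Irf2 and Irf8, in 3 of their 11 windows of 250 bases and in 7.01% of 32817 such windows of all genes. In the sequences below, which run 5′ to 3′ on the plus strand, capitals mark the GAS letters. Irf8 is shown from chr8:120736108-120736357, Irf5 from chr6:29526375-29526624, and windows of 60 bases are shown for Irf1 (chr11:53769898-53769957) and Irf2 (chr8:46739495-46739554).

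Irf8 upstream: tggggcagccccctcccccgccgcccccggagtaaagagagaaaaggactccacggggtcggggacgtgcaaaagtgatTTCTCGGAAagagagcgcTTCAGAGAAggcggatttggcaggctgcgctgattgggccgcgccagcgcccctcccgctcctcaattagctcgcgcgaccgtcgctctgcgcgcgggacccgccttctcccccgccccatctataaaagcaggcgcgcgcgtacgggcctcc
Irf5 upstream: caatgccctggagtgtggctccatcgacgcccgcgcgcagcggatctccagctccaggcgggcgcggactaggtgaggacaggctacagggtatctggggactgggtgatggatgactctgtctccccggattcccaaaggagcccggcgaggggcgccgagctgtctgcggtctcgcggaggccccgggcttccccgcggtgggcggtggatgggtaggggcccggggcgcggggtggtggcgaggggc
Irf1 window: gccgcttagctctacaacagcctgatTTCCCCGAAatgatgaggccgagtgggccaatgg
Irf2 window: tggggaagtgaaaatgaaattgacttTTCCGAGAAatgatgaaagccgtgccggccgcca

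Irf8 held 2 GAS matches, at 171 to 163 and at 153 to 145 bases upstream of its start. Irf1 held 1 match at 90 to 82 bases upstream, and Irf2 held 1 at 224 to 216 bases upstream. The ISRE core was searched on both strands as GAAA, any 2 bases and GAAA, and was found upstream of 1 member, Irf2, at 241 to 232 bases upstream, where it does not overlap the GAS match. That core was in 2.97% of all windows. The PU.1 letters GAGGAAGT, searched on both strands, were in none of the 11 windows of the members and in 2.44% of all windows. A match is a description of letters and not a measured binding site. As given below, the 3 genes with GAS letters had different values with Tβ-MCA, Irf1 being higher and Irf2 and Irf8 lower in the means.

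In the control cells the length-corrected levels (RPKM, which divide the counts by exon length and library size) spread over a wide range. Irf2 was the most abundant member at 39.7 to 44.6 RPKM in the PBS samples, and Irf1 followed at 20.2 to 23.0 RPKM. Irf5 came next at 17.4 to 19.3 RPKM. These 3 genes did not overlap each other in RPKM in the PBS samples. Irf3 (12.5 to 13.9 RPKM), Irf8 (11.3 to 12.8 RPKM) and Irf9 (9.76 to 11.6 RPKM) formed the middle of the order, and each overlapped its neighbour. Irf7 lay below them at 3.61 to 5.43 RPKM. Irf4, best known from lymphocytes and dendritic cells, was the lowest at 0.365 to 0.505 RPKM, and over all 12 samples it rested on 49 to 85 reads per sample. Irf2 was the first and Irf1 the second gene of this order in 12 of 12 samples, and Irf7 and Irf4 were the last in 12 of 12. The middle of the order was less fixed, since Irf5 was above Irf3 in RPKM in 9 of 12 samples, and the exceptions were Tβ-MCA replicates 3 and 4 and GCA replicate 4. The exon length used is that of all annotated exons merged. For Irf7 these formed 1 block of 3776 bases, its whole span. The order between genes, and the low place of Irf7 in it, therefore depends on these merged lengths.

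**Figure D1:**
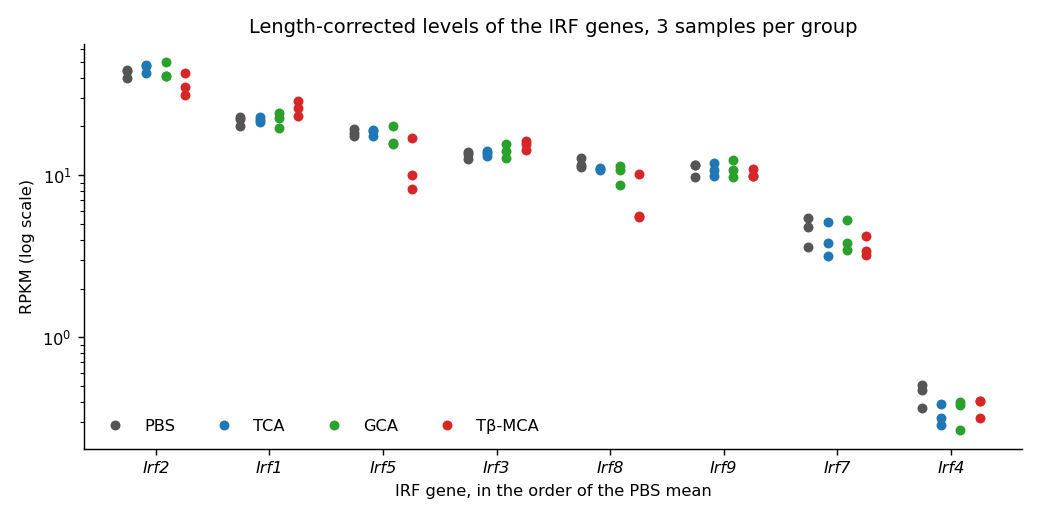
Length-corrected level of each IRF gene (RPKM, log axis) in every sample, 1 point per sample and 3 samples per group, with genes in the order of the PBS mean. Irf2 is at the top at 39.7 to 44.6 RPKM with PBS and Irf4 at the bottom at 0.365 to 0.505 RPKM.

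Several members share exon bases with a neighbouring gene, by the positions given in the count table. The exons of Irf5 (chr6:29526625-29541871, plus strand, GRCm38) shared 411 bases with Tnpo3 on the opposite strand, 14.1% of the Irf5 exon length. Irf8 (chr8:120736358-120756694, plus strand) lies within the span of Gm20388 on the same strand, which had 1929 to 2530 reads per sample, but their exons shared 0 bases. Irf9 (chr14:55603571-55610030) shared 123 exon bases with Rnf31 on the same strand. On the opposite strand, Irf1 (chr11:53770014-53778374) shared 135 bases with Gm17334, Irf3 (chr7:44997648-45002848) 88 with Bcl2l12, and Irf7 (chr7:141262706-141266481, minus strand) 45 with Phrf1. The overlapping genes had 1522 to 2118 reads per sample for Tnpo3, 1428 to 1874 for Rnf31, 487 to 735 for Gm17334, 311 to 395 for Bcl2l12 and 7322 to 9085 for Phrf1. Irf2 (chr8:46739732-46847458) spans 3 predicted genes of the opposite strand, Gm45479, Gm45480 and Gm45481, with at most 13, 7 and 23 reads per sample and 0 shared exon bases. Irf4 (chr13:30749226-30766927) overlapped no other gene. The library kit keeps strand, but the strand setting of the counting is not given in the sources used here, so the shared bases on opposite strands may hold reads of either gene.

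The effect of the 2 cholic acid conjugates on the family was asked by setting TCA and GCA each against PBS. With either acid, the levels of Irf1, Irf2, Irf3 and Irf9 stayed within 0.10 of the controls on the log2 scale, and no member passed the test. For Irf1, the PBS samples (replicates 3, 5 and 6) had 82.4, 92.1 and 88.7 CPM, the TCA samples (replicates 3, 4 and 5) 87.2, 87.2 and 90.4 CPM and the GCA samples (replicates 3, 4 and 5) 79.1, 94.1 and 90.6 CPM, so the 3 groups overlapped. The log2 fold changes of Irf1 were 0.01 ± 0.08 (SE) with TCA and 0.00 ± 0.08 with GCA. Irf9, which binds DNA together with Stat2, had -0.02 ± 0.11 with TCA and -0.02 ± 0.11 with GCA.

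Across the 8 members the log2 fold changes ranged from -0.45 to 0.10 with TCA and from -0.37 to 0.07 with GCA. With both acids 0 of 8 members were called by edgeR's quasi-likelihood test at an adjusted p under 0.05, and 0 of 16761 genes tested (0%) were called. At an unadjusted p under 0.05 the count was again 0 of 8 members in each comparison, beside 3.26% of all genes with TCA and 3.53% with GCA. DESeq2 called 0 of the members in these comparisons, and limma called 0 of 7, since Irf4 fell below its filter. The 2 comparisons share the PBS samples.

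Irf4 had the lowest fold change with each cholic acid conjugate. Its levels were 2.44, 2.27 and 1.73 CPM with PBS, 1.89, 1.35 and 1.49 CPM with TCA and 1.92, 1.78 and 1.27 CPM with GCA. The groups overlapped, and the log2 fold changes were -0.45 ± 0.23 with TCA (edgeR, unadjusted p = 0.068, adjusted p = 1.0) and -0.37 ± 0.23 with GCA (unadjusted p = 0.12, adjusted p = 1.0).

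Irf8 was the single member whose TCA samples did not overlap the controls. The PBS samples had 92.7, 82.4 and 79.8 CPM, the TCA samples 78.5, 77.9 and 77.0 CPM, and the GCA samples 81.2, 60.3 and 77.1 CPM. All 3 TCA samples lay just below the lowest control, and in the GCA group replicate 4 was lower than the rest. The log2 fold changes were -0.13 ± 0.22 with TCA (edgeR, unadjusted p = 0.57) and -0.22 ± 0.22 with GCA (unadjusted p = 0.33), and without GCA replicate 4 the GCA value was -0.10. TCA samples that were lower than PBS without overlap were found for 4.76% of all genes. With GCA 0 of 8 members lay apart from PBS, beside 9.55% of all genes in either direction.

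TCA and GCA were also compared with each other, since they were given at the same dose and differ in the amino acid joined to cholic acid. No member passed the test, and the intervals show how large a difference could have gone unseen. The log2 fold change of GCA against TCA ranged from -0.10 for Irf5 to 0.07 for Irf4, and 0 of 8 members were called by edgeR, at an adjusted p under 0.05 (0% of all genes) or at an unadjusted p under 0.05 (2.46% of all genes), and 0 by DESeq2, or by limma for the 7 members it tested. For the narrowest case, Irf3, the GCA level was 1.03 times the TCA level with a 95% interval of 0.920 to 1.14. For Irf8 the ratio was 0.937 with an interval of 0.670 to 1.31, and for Irf5 it was 0.931 with an interval of 0.661 to 1.31. A difference of that size between the 2 conjugates in Irf8 or Irf5 is therefore within what these samples allow.

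With Tβ-MCA the members moved apart from each other. Irf8 and Irf5 had the lowest values relative to PBS and Irf2 was lower in the mean, whereas Irf1 and Irf3 were higher in the mean. The plot of CPM by sample shows that for these 5 genes the values farthest from PBS were those of Tβ-MCA replicates 3 and 4.

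**Figure D2:**
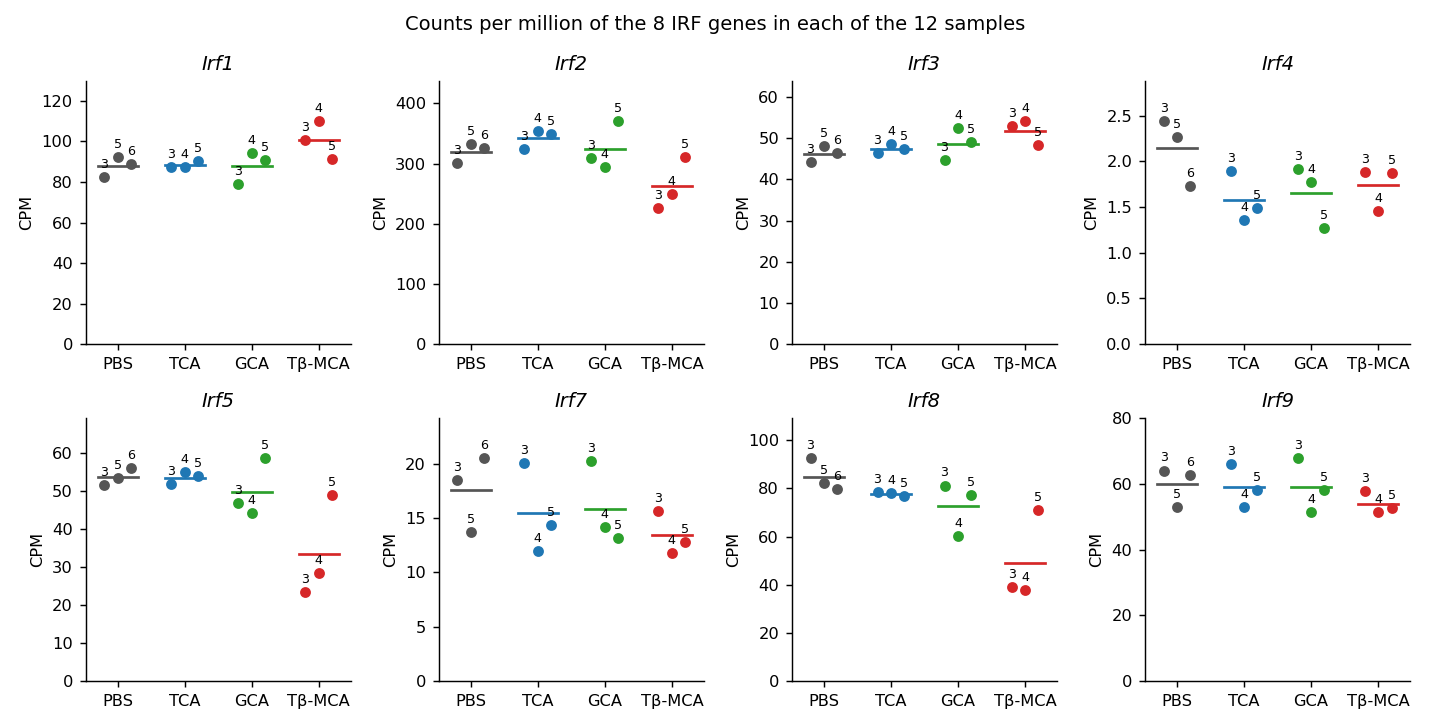
CPM of each of the 8 IRF genes (vertical axis, starting at 0) in the PBS, TCA, GCA and Tβ-MCA groups, with 1 point per sample, its replicate number above it and a line at the group mean. Tβ-MCA replicates 3 and 4 of Irf8 are at 38.9 and 37.8 CPM and replicate 5 is at 70.9 CPM, below the lowest PBS sample at 79.8 CPM.

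Irf8, the factor of monocyte and dendritic cell fate, had 38.9, 37.8 and 70.9 CPM in Tβ-MCA replicates 3, 4 and 5. All 3 values were below the 3 control values and below all TCA values, but replicate 5 was above the lowest GCA sample. The log2 fold change of Irf8 was -0.79 ± 0.22 over all 3 samples and -1.15 ± 0.11 without replicate 5, so leaving out this library moved the value. In percent of the PBS mean, the level was 45.8% and 44.5% in replicates 3 and 4 and 83.5% in replicate 5.

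Irf5, which acts downstream of Toll-like receptors in inflammatory macrophages, followed the same samples. Its levels were 51.7, 53.5 and 56.3 CPM with PBS, 51.9, 55.1 and 53.9 CPM with TCA, 46.9, 44.2 and 58.8 CPM with GCA and 23.4, 28.4 and 48.9 CPM with Tβ-MCA. The Tβ-MCA samples did not overlap the PBS or TCA samples, but they overlapped the GCA samples through replicate 5. The log2 fold change against PBS was -0.68 ± 0.22, and -1.05 ± 0.12 without replicate 5.

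Irf2, the most abundant member, was lower by a smaller margin. Its levels were 301, 333 and 326 CPM with PBS, 324, 355 and 349 CPM with TCA, 309, 295 and 370 CPM with GCA and 226, 249 and 312 CPM with Tβ-MCA. The Tβ-MCA samples overlapped the PBS samples through replicate 5, and they lay below all TCA samples. The log2 fold change against PBS was -0.28 ± 0.11, and -0.43 ± 0.09 without replicate 5.

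The activators Irf1 and Irf3 had values in the opposite direction. Irf1 had 101, 110.0 and 91.3 CPM in Tβ-MCA replicates 3, 4 and 5, with replicate 5 inside the range of the controls. Its log2 fold change was 0.20 ± 0.08, and 0.26 ± 0.08 without replicate 5. Irf3, the constitutive factor activated by viral sensing, had 44.2, 48.1 and 46.4 CPM with PBS, 46.4, 48.7 and 47.4 CPM with TCA, 44.6, 52.4 and 49.1 CPM with GCA and 52.9, 54.1 and 48.5 CPM with Tβ-MCA. The Tβ-MCA samples of Irf3 lay above the PBS samples, narrowly for replicate 5, and the log2 fold change was 0.16 ± 0.07, and 0.21 ± 0.08 without replicate 5.

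Irf7, Irf9 and Irf4 overlapped the controls with Tβ-MCA. Irf7, the interferon-inducible amplifier of type I interferon genes, had 18.5, 13.7 and 20.5 CPM with PBS, 20.0, 11.9 and 14.3 CPM with TCA, 20.2, 14.2 and 13.1 CPM with GCA and 15.7, 11.8 and 12.8 CPM with Tβ-MCA. Irf9 ranged from 53.1 to 64.1 CPM with PBS and from 51.4 to 57.7 CPM with Tβ-MCA. For both genes the groups overlapped, and replicate 3 was their highest sample in each of the 3 bile acid groups. The log2 fold changes with Tβ-MCA were -0.39 ± 0.22 for Irf7, -0.15 ± 0.11 for Irf9 and -0.30 ± 0.23 for Irf4, which had 1.88, 1.46 and 1.87 CPM. Without replicate 5 they were -0.36 ± 0.26, -0.14 ± 0.12 and -0.36 ± 0.26.

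**Figure D3:**
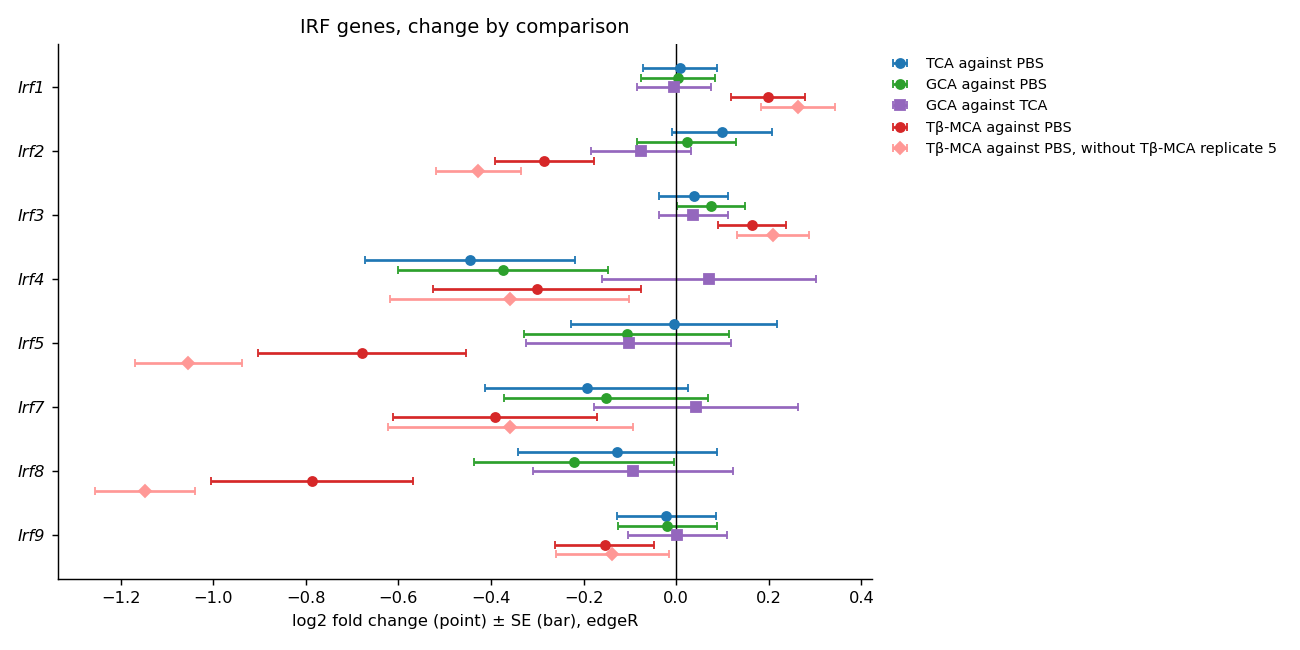
Log2 fold change (horizontal axis, points) with its SE (bars) for each IRF gene in the comparisons of TCA, GCA and Tβ-MCA with PBS and of GCA with TCA, from edgeR. Irf8 and Irf5 lie farthest to the left with Tβ-MCA, at -0.79 and -0.68, and farther still without Tβ-MCA replicate 5, at -1.15 and -1.05.

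As a count for Tβ-MCA against PBS, 3 of the 8 members did not overlap between the groups, Irf3 being higher, beside 14.1% of all genes, and Irf5 and Irf8 lower, beside 12.8% of all genes. At an adjusted p under 0.05 by edgeR the count was 0 of 8 members, beside 7.62% of all genes, and at an unadjusted p under 0.05 it was 5 of 8, beside 24.9% of all genes. DESeq2, run without the filter on low counts, had 1 member under the adjusted threshold, beside 2035 of all 29737 genes in the table. With limma it was 1 of 7, beside 861 of 13951 genes. Without Tβ-MCA replicate 5, edgeR had 4, beside 3076 of 17131 genes. Because the family was selected with the Irf8 value known, nothing is read from these counts. The TCA and Tβ-MCA values of these genes are set side by side here, and no difference is drawn between them, since the labelled doses differ. Against PBS, the log2 fold changes of Irf8 were -0.13 with TCA and -0.79 with Tβ-MCA, and those of Irf5 were 0.00 with TCA and -0.68 with Tβ-MCA.

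Within the Tβ-MCA group, monocyte markers were low in the same replicates as Irf8, as were several other marker lists. The monocyte values in the other groups are given beside those of Irf8. The 12 genes of a monocyte and macrophage list, all above 0 in every sample, summed to 458 to 533 CPM with PBS, 380 to 556 CPM with TCA and 422 to 536 CPM with GCA. With Tβ-MCA the sums were 239, 277 and 447 CPM in replicates 3, 4 and 5, the same replicates being low as for Irf8 and Irf5. With PBS, the sample highest in Irf8, replicate 3 at 109% of the PBS mean, was the lowest in this list at 91.2%. With TCA, Irf8 lay between 90.6% and 92.4% of the PBS mean while the list lay between 75.7% and 110% of it. In GCA replicates 3, 4 and 5, Irf8 was at 95.6%, 71.0% and 90.7% and the list at 84.0%, 85.3% and 107%. With Tβ-MCA, the list's median log2 fold change was -0.65 against 0.00 for all genes, with 0 of 12 called lower by edgeR at an adjusted p under 0.05, beside 3.18% of all genes, and 3 lower at an unadjusted p under 0.05, beside 12.3% of all genes. Without replicate 5 it was -1.04 with 8 of 12 called lower, beside 9.44% of all genes. Among its defining genes, the chemokine receptor Ccr2 had 51.2, 37.3 and 37.9 CPM with PBS and 2.03, 2.70 and 29.2 CPM with Tβ-MCA, and the growth factor receptor Csf1r had 215, 262 and 271 CPM with PBS and 146, 178 and 235 CPM with Tβ-MCA. The replicate order was not particular to monocyte genes. In Tβ-MCA replicates 3, 4 and 5 the eosinophil sums were 84.4, 60.2 and 139 CPM and the progenitor sums 68.1, 61.3 and 82.2 CPM. Replicate 5 was also highest in the neutrophil, conventional dendritic cell, and T and NK cell sums. It was not in the B cell, plasmacytoid dendritic cell, basophil and mast cell, and erythroid sums. In bulk samples, fewer cells of a type and less RNA of a gene per cell cannot be told apart, and the part of monocytes in the Irf8 and Irf5 values was not tested.

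The summed markers of dendritic cells and B cells, which also use Irf8, were at low levels. With Tβ-MCA the dendritic cell genes did not all go one way, and the medians of the other marker lists were below 0. A list of 6 conventional dendritic cell genes summed to 24.3 to 31.5 CPM with PBS and to 16.3 to 24.2 CPM with Tβ-MCA, with up to 2 and 1 of its genes at 0, and 7 plasmacytoid dendritic cell genes summed to 10.7 to 14.5 CPM with PBS and to 6.94 to 10.6 CPM with Tβ-MCA, with up to 2 at 0. Although these sums were lower, the median log2 fold change was 0.24 for the conventional list, with 3 of 5 genes tested above 0, and 0.02 for the plasmacytoid list, with 2 of 3 above 0. By edgeR 0 genes of either list were called, beside 7.62% of all genes. At an unadjusted p under 0.05, 1 gene was higher and 2 were lower, beside 12.6% and 12.3% of all genes. Without replicate 5, the integrin Itgae of the conventional list was called higher (0.74 ± 0.22) and the transcription factor Tcf4 of the plasmacytoid list lower (-0.75 ± 0.20), beside 8.52% and 9.44% of all genes. The 8 B cell genes summed to 41.6 to 58.4 CPM with PBS and to 38.5 to 43.1 CPM with Tβ-MCA. Their median log2 fold change was -0.79, with 0 of 8 above 0, and 1 of them, Cd79a, was called lower, beside 3.18% of all genes. Cd79a was also the 1 called lower without replicate 5, beside 9.44% of all genes. The neutrophil list had a median log2 fold change of -0.63 and 4 of 13 genes called lower by edgeR, Ly6g, S100a8, Camp and Mmp9, beside 3.18% of all genes, and without replicate 5 the values were -0.88 and 10 of 13, beside 9.44%. The summed eosinophil list was 155 to 273 CPM with PBS and 60.2 to 139 CPM with Tβ-MCA. Its median log2 fold change was -0.95, with 0 of 7 genes above 0 and 1 called lower, Siglecf, beside 3.18% of all genes. Without replicate 5, 4 were called lower, namely Siglecf, Prg2, Ear1 and Ear2, beside 9.44%. The medians of the T and NK cell (-0.65), basophil and mast cell (-0.49), progenitor (-0.37) and erythroid (-0.11) lists were also below 0.

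Among the genes tested, those with the profile nearest to Irf8 over the 12 samples, by the root mean square difference of log2 CPM centred on each gene's mean, were Emilin1, Dfna5, Lyz2, Asxl1 and Tmem176b. Their difference from Irf8 was 0.063 log2 for Emilin1, an extracellular matrix protein, 0.083 for Lyz2, the lysozyme of myeloid cells, and 0.088 for Tmem176b, the farthest of the 5. Irf5 itself differed from Irf8 by 0.14. Lyz2 had 4811, 4547 and 4322 CPM with PBS and 2185, 2103 and 3294 CPM with Tβ-MCA, replicate 5 again being the highest of the Tβ-MCA samples. For Irf5, the nearest genes were Txndc5 (0.083 log2), Gpx3 (0.090) and Plekho1 (0.093). All of these profiles share the same libraries, so likeness is a description of these 12 samples.

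**Figure D4:**
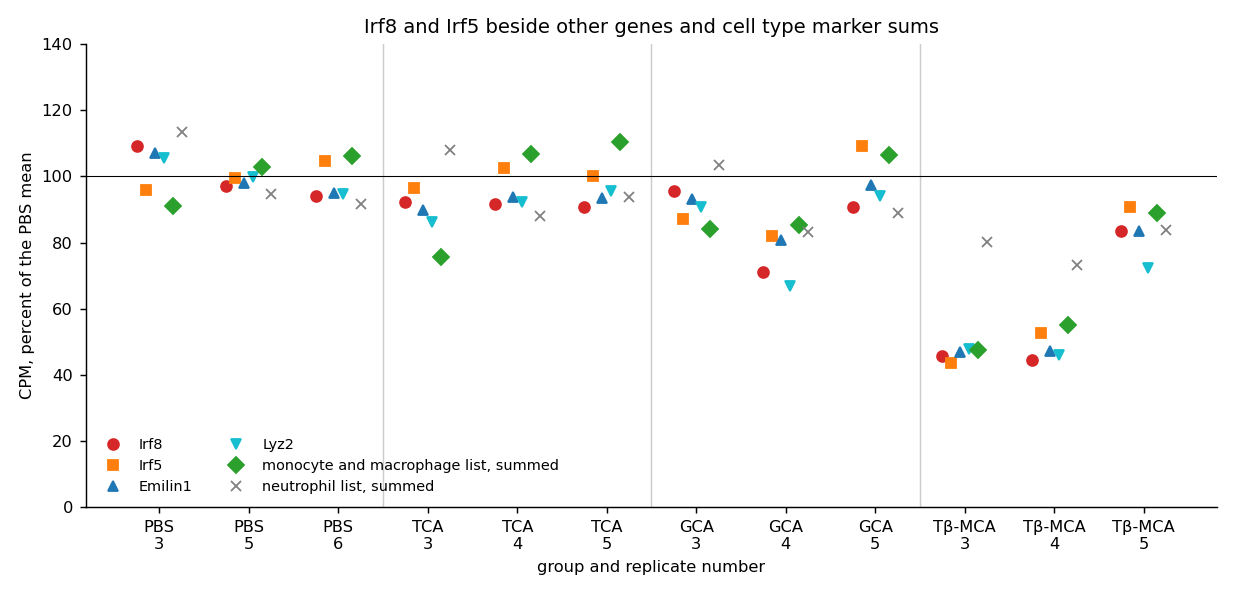
CPM of Irf8, Irf5, Emilin1 and Lyz2 and the summed CPM of the monocyte and macrophage list and the neutrophil list in every sample (horizontal axis, group and replicate number), in percent of the PBS mean (vertical axis). In Tβ-MCA replicates 3 and 4, Irf8 is at 45.8% and 44.5% and the monocyte and macrophage list at 47.5% and 55.1%, and in replicate 5 they are at 83.5% and 88.8%.

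The other genes of the interferon pathway were examined in 8 lists that run from the ligands to the targets of the family, 125 genes of which were tested. These lists and the marker lists above were chosen with earlier results of these data known. Their calls and p-values with Tβ-MCA are therefore given as a description. With Tβ-MCA against PBS, 10 of the 125 were called higher and 9 lower by edgeR at an adjusted p under 0.05, beside 4.44% of all genes called higher and 3.18% lower. These calls depend on the libraries and the fit, as do those of all genes. The total was 0 without PBS replicate 3, without PBS replicate 5, without Tβ-MCA replicate 3 or without Tβ-MCA replicate 4, and 0 when the 2 groups were fitted alone. In each of these fits 0 of all genes tested were called. Without PBS replicate 6 the total was 3, beside 168 of 17124 genes. Without Tβ-MCA replicate 5 it was 38, beside 3076 of 17131 genes. Without Tβ-MCA replicate 5, 17 were called higher and 21 lower, beside 8.52% and 9.44% of all genes, among them 10 higher and 1 lower of the interferon gamma and IRF1 targets, 2 higher and 2 lower of the type I genes and 1 higher and 7 lower of the sensors, adaptors and kinases. With TCA and with GCA, 0 of 125 were called by edgeR (0% of all genes), and 5 and 4 had an unadjusted p under 0.05, beside 3.26% and 3.53% of all genes.

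The interferon transcripts that had a row in the count table were near or below the floor. Of 20 interferon ligands, 4 had a row, Ifng, Ifnk, Ifna16 and Ifnab, and they had between 0 and 4 reads per sample. The other 16, Ifnb1 among them, had no row under these names, so nothing is known here of their levels. Ifng, the gamma interferon, had 1 read in 1 of the 12 samples.

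The receptors and the kinases and STATs behind them were present in every group. Of 12 genes, 2 were called higher with Tβ-MCA and 1 lower, beside 4.44% and 3.18% of all genes, with a median log2 fold change of 0.06. Without replicate 5 the counts were 4 higher and 1 lower, beside 8.52% and 9.44%. Il10rb, a receptor chain shared by interferon lambda and interleukin 10, had 103, 120 and 128 CPM with PBS and 173, 189 and 134 CPM with Tβ-MCA (log2 fold change 0.50 ± 0.12, edgeR adjusted p = 0.029). Tyk2, a Janus kinase of the type I interferon receptor, had 56.1, 51.0 and 50.0 CPM with PBS and 75.6, 63.9 and 60.6 CPM with Tβ-MCA (0.35 ± 0.09, adjusted p = 0.029). Ifnlr1, the other chain of the interferon lambda receptor, had 97.6, 96.7 and 81.8 CPM with PBS and 59.7, 67.9 and 79.8 CPM with Tβ-MCA (-0.41 ± 0.10, adjusted p = 0.027). So the 2 chains of the interferon lambda receptor were called in opposite directions, and neither overlapped the controls.

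Stat2, a partner of Irf9, was higher in the mean without a call. It had a log2 fold change of 0.27 ± 0.09 (edgeR adjusted p = 0.088) and its Tβ-MCA samples, at 77.5, 65.5 and 61.2 CPM, lay above the controls, and without replicate 5 it was called (0.34 ± 0.10, adjusted p = 0.021). The type I receptor chains Ifnar1 and Ifnar2 had 0.02 ± 0.07 and 0.03 ± 0.06, the gamma receptor chains Ifngr1 and Ifngr2 had 0.10 ± 0.09 and -0.19 ± 0.08, and Jak1, Jak2 and Stat3 had -0.06 ± 0.06, 0.08 ± 0.06 and 0.00 ± 0.05. Over the 12 genes of the list, the log2 fold changes lay between -0.21 and 0.11 with TCA and between -0.14 and 0.13 with GCA.

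Upstream of the family, 2 of 7 signal inhibitors were called lower with Tβ-MCA, the phosphatases Ptpn6 (-0.29 ± 0.07) and Ptpn11 (-0.33 ± 0.09), beside 3.18% of all genes, and 0 higher. The counts were the same without replicate 5, beside 9.44% of all genes called lower. Of 27 sensors, adaptors and kinases tested, 2 were called lower, beside 3.18% of all genes, and 0 higher. They were Tank (-0.28 ± 0.07), which binds the kinases that activate Irf3, and Unc93b1 (-0.21 ± 0.06), which carries nucleic acid sensing Toll-like receptors to endosomes. Of 11 partners and cofactors, Batf3, a partner of Irf8 in dendritic cells, was called lower (-1.53 ± 0.39, edgeR adjusted p = 0.032), with 0.52, 1.41 and 1.13 CPM with PBS and 0.24, 0.27 and 0.54 CPM with Tβ-MCA. The Batf3 groups overlapped by replicate 5, and this was the 1 call among the 11, beside 3.18% of all genes called lower. Spi1, the gene of PU.1, had 493, 504 and 457 CPM with PBS and 410, 414 and 466 CPM with Tβ-MCA. Without replicate 5, 3 partners were called lower, Batf3 (-1.99 ± 0.43), Spi1 (-0.23 ± 0.08) and Irf2bpl (-1.23 ± 0.29), beside 9.44% of all genes, and 0 higher. With TCA, in which no gene was called, the genes of these lists with an unadjusted p under 0.05 and no overlap were Ikbke (-0.26 ± 0.11), Ticam1 (-0.25 ± 0.10) and Unc93b1 (-0.17 ± 0.06), and with GCA they were Socs1 (-0.63 ± 0.28) and Myd88 (-0.16 ± 0.07).

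Downstream of the family, the target lists moved unequally with Tβ-MCA. Of 25 interferon gamma and IRF1 target genes tested, 7 were called higher and 0 lower, beside 4.44% and 3.18% of all genes. Their median log2 fold change was 0.20. The guanylate-binding proteins Gbp5, Gbp6 and Gbp2, which act against intracellular pathogens, had the largest values of the list. Gbp5 had 3.79, 2.47 and 3.24 CPM with PBS and 10.9, 10.6 and 4.92 CPM with Tβ-MCA (log2 fold change 1.47 ± 0.38, edgeR adjusted p = 0.042). Gbp2 had 5.14, 4.30 and 6.36 CPM with PBS and 14.1, 11.5 and 7.92 CPM with Tβ-MCA (1.08 ± 0.24, adjusted p = 0.025), and Gbp6 had a log2 fold change of 1.38 ± 0.27 (adjusted p = 0.021). Their Tβ-MCA samples lay above all controls, with replicate 5 the lowest of the 3, and GCA replicate 4, at 9.45 CPM for Gbp2 and 6.79 CPM for Gbp5, stood above the other GCA samples. The Gbp genes are close relatives, so reads may be divided between them. The other 4 called genes were Gbp7 and the antigen-processing genes Psmb9, Tap1 and Tapbp, with log2 fold changes of 0.60, 0.50, 0.26 and 0.23. Not every gene of the list went this way, since Gbp4 had -1.15 (edgeR adjusted p = 0.066) and Irgm1 -0.40 (adjusted p = 0.081), and without replicate 5 Irgm1 was called lower (-0.51, adjusted p = 0.026). With GCA, Tap1 (0.17 ± 0.08) and Tap2 (0.15 ± 0.07) had an unadjusted p under 0.05 and did not overlap the controls, and with TCA Icam1 (-0.27 ± 0.12) did so in the lower direction. With GCA against TCA, Tap2 (0.15 ± 0.07) and the sensor Dhx58 (0.19 ± 0.08) did so in the higher direction.

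The type I interferon-stimulated genes gave a different picture from the gamma list. Of 34 tested, 1 was called higher, Ifit1 (0.74 ± 0.21), beside 4.44% of all genes. Called lower were 2, Oas1g (-0.91 ± 0.26) and Samhd1 (-0.27 ± 0.07), beside 3.18% of all genes. The median log2 fold change of the list was -0.19. Ifit1 had 3.53, 2.97 and 3.91 CPM with PBS and 6.19, 7.05 and 4.12 CPM with Tβ-MCA, whereas Oas1g had 4.62, 2.65 and 4.45 CPM with PBS and 2.21, 1.84 and 2.19 CPM with Tβ-MCA. The summed list was 1439 to 1656 CPM with PBS and 1470, 1389 and 1439 CPM in the Tβ-MCA samples. The difference between the 2 target lists was not tested.

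Of 9 genes tested from a list of reported Irf8 or Irf4 targets, 1 was called lower with Tβ-MCA and 0 higher, beside 3.18% and 4.44% of all genes. That gene was the protease inhibitor Cst3, with 220, 262 and 247 CPM with PBS and 172, 181 and 206 CPM with Tβ-MCA (log2 fold change -0.38 ± 0.09, edgeR adjusted p = 0.024). Klf4, a monocyte transcription factor, had 10.2, 9.18 and 9.87 CPM with PBS and 4.94, 4.64 and 8.24 CPM with Tβ-MCA (-0.71 ± 0.22, adjusted p = 0.064, and -1.02 ± 0.19, adjusted p = 0.0016 without replicate 5), with replicate 5 the highest of the Tβ-MCA samples as for Irf8. The median of the list was -0.21, and 0 of its 9 genes had a value above 0. Without Tβ-MCA replicate 5, 5 of 9 were called lower, beside 9.44% of all genes.

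**Figure D5:**
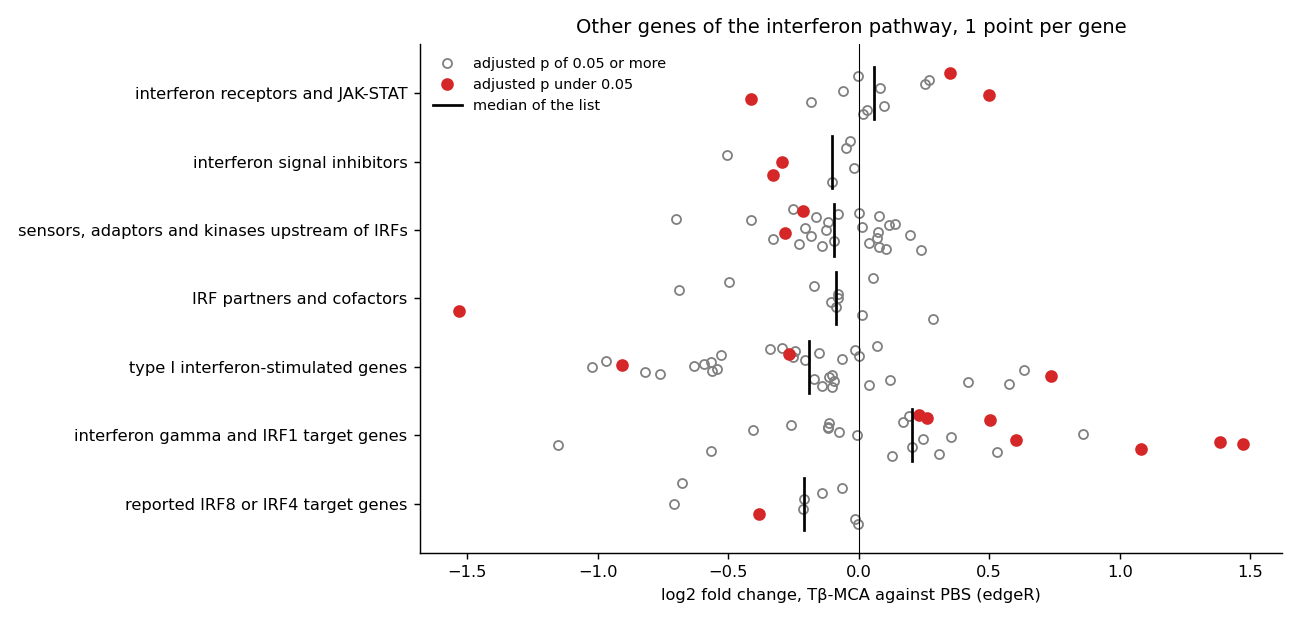
Log2 fold change of Tβ-MCA against PBS from edgeR (horizontal axis) for the other genes of the interferon pathway, 1 point per gene in 7 lists, with filled points for an adjusted p under 0.05 and a line at each list's median. The interferon gamma and IRF1 target genes have 7 filled points, all on the higher side, beside 4.44% of all genes called higher. Their median is 0.20, and the type I interferon-stimulated genes have a median of -0.19.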

How the data were processed

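Bulk RNA-seq of 12 neutrophil samples in 4 groups of 3 was used, grouped by the labels. The authors deposited raw read counts per gene and RPKM values, made by trimming with Trimmomatic 0.36, alignment (STAR 2.5.3a is named in the submitters' processing notes), and counting on exons with featureCounts (Subread 1.5.1) on GRCm38. Per the file headers the deposited RPKM are counts divided by the merged exon length and by the reads counted on genes. Counts were normalized with TMM, filterByExpr (by group) kept 16761 of 29737 genes, and groups were compared in 1 fit of all samples with edgeR 4.0.16 (quasi-likelihood test, Benjamini-Hochberg adjustment over all genes tested, R 4.3.3). All 8 members passed the filter. DESeq2 1.42.0 and limma 3.58.1 on log2(RPKM + 1), for genes averaging 0.5 RPKM or more, were alternatives, as were other normalizations, other filters, the replicate number as a block and leaving out each sample. DESeq2 calls are set beside all 29737 genes of the table, so those shares are not like the edgeR shares over 16761 genes. The fits were tested on simulated data. The 32757389 to 41375925 counts per sample set the precision.

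The members and the gene lists were chosen with earlier results of these data known. The genes named were the 8 members, the receptor and JAK-STAT genes (1 is not reported here), the 5 genes nearest to Irf8 and the 3 nearest to Irf5 (for members with a log2 range over 1 and a mean over 1 CPM), genes overlapping a member, and from each list and comparison up to 3 higher and 3 lower genes that passed the test (where none did, an unadjusted p under 0.05) and did not overlap between groups. Marker genes, Stat partners, Spi1, Irf2bpl, Klf4, Gbp4, Gbp7, Irgm1, Psmb9, Tap1 and Tapbp with Tβ-MCA and Batf3 were named in addition, after their values were seen. No sample column was left unused.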

Additional observations from a re-analysis of the deposited data

How the results depend on the processing

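With TCA and GCA against PBS and with GCA against TCA, 0 of the 8 IRF genes were called under all the alternatives run. With Tβ-MCA against PBS the count of 0 became 4 without a filter on low counts, beside 2406 of all 29737 genes. It was 1 with at least 10 counts in every sample (1342 of 14409 genes) and 1 with DESeq2 (2035 of 29737). With limma on log2(RPKM + 1) it was 1 of 7 (861 of 13951). When 1 sample was left out it was 0 to 4. The 4 were counted without Tβ-MCA replicate 5, beside 3076 of 17131 genes. Without another PBS or Tβ-MCA sample at most 168 of all genes were called. For Tβ-MCA against TCA, whose labelled doses differ, no difference is drawn from the counts. The main count of 0 of 8 members (588 of 16761 genes) became 3 without the filter (2077 of 29737 genes). It was 1 with DESeq2 (1540 of 29737) and 1 with the replicate block (2322 of 16761). When 1 sample was left out it was 0 to 4, again 4 without Tβ-MCA replicate 5 (2619 of 17131 genes). Nothing is read from these member counts. Of the other pathway genes, 19 of 125 were called with Tβ-MCA against PBS. The count became 37 of 134 without the filter, beside 2406 of all 29737 genes. It was 8 of 115 with limma (861 of 13951 genes) and 0 of 124 with only the 2 groups compared (0 of 16064 genes). When 1 sample was left out it was 0 to 38 of 125. With TCA against PBS, 1 of 134 was called without the filter, beside 37 of 29737 genes. The cause of these differences was not tested.

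Irf8, Irf5, Irf2, Irf1 and Irf3 kept their direction with Tβ-MCA against PBS under all the alternatives run. Several log2 fold changes, most of them near 0, changed sign without a call. Irf7 values that did so were larger in the main fit. They were -0.19 with TCA and -0.15 with GCA against PBS, and -0.20 with Tβ-MCA against TCA. For Irf1, GCA against TCA was 0.0067 with total library sizes and 0.0020 with limma. Leaving out 1 sample gave ranges, with TCA against PBS, of -0.0366 to 0.0448 for Irf1, -0.0347 to 0.0286 for Irf5 and -0.1095 to 0.0481 for Irf9. With GCA against PBS they were -0.0479 to 0.0747 for Irf1, -0.0833 to 0.0877 for Irf2 and -0.1296 to 0.0723 for Irf9. With GCA against TCA they were -0.0562 to 0.0666 for Irf1, -0.0186 to 0.0963 for Irf3, -0.0480 to 0.2317 for Irf4, -0.1717 to 0.2718 for Irf7, -0.1787 to 0.0248 for Irf8 and -0.1079 to 0.0938 for Irf9, and with Tβ-MCA against TCA -0.3546 to 0.0311 for Irf7.

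The replicate numbers are not stated to mark a shared mouse or day. Deviations of samples with the same number correlated at 0.060 to 0.33 (15 pairs), and with Tβ-MCA and GCA 6 of 6 samples correlated best with their own number, with TCA and Tβ-MCA 5 of 6 and with TCA and GCA 4 of 6, a hint from the data only. With the replicate block, 24 of the 125 other pathway genes were called with Tβ-MCA against PBS, beside 1498 of 16761 genes. Signs changed for TCA against PBS in Irf1 (-0.0179), Irf5 (0.0821), Irf7 (0.0307) and Irf9 (0.0818), for GCA against PBS in Irf1 (-0.0258), Irf7 (0.0760) and Irf9 (0.0808), and for GCA against TCA in Irf9 (-0.0009). Irf4, at 49 to 85 reads per sample, is the member whose depth limits precision most.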

Other observations

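Irf7 and Irf9 varied between replicates within each group, and the genes with the nearest profiles over the 12 samples were named after these values were seen. For Irf7 they were Helz2 (0.13 log2 root mean square difference), Oas3 (0.13), Mag (0.14) and Oasl2 (0.15), of which Oas3 and Oasl2 are interferon-induced members of the oligoadenylate synthetase family. For Irf9 the nearest gene was Adar (0.063), the RNA-editing enzyme with an interferon-inducible form. Oas3 had 46.9, 34.2 and 44.8 CPM in PBS replicates 3, 5 and 6, 40.8, 28.9 and 33.2 CPM in TCA replicates 3, 4 and 5, 47.3, 28.9 and 31.3 CPM in the same replicates of GCA and 32.0, 22.2 and 30.8 CPM in those of Tβ-MCA. As for Irf7 and Irf9, replicate 3 was the highest of each bile acid group and replicate 5 the lowest of the PBS group. The summed type I interferon-stimulated genes were also highest in replicate 3 of each bile acid group, at 1591 CPM with TCA, 1685 CPM with GCA and 1470 CPM with Tβ-MCA.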
